A study of Mus musculus with 6 samples.

Results

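Heart tube endothelium was compared with endothelium of caudal-half tissue of the embryo and of the yolk sac, across all genes measured. The 2 heart tube arrays of a series of 6 were set against the mean of caudal-half tissue mean and the yolk sac mean, with 2 arrays behind each. All samples came from mice of mixed background at embryonic day 9.5. The labels' short names carry the letters Wt, and no agent or other allele is named. Freshly isolated tissue was sorted by flow cytometry for cells with CD31 and without CD41 or CD45 on the surface, which enriches endothelial cells. The 2 samples of each tissue were independent biological replicates. The labels used here give no number of embryos per sample. Each RNA was hybridised to its own Affymetrix mouse array. The caudal part of the embryo and the yolk sac are known sites of blood formation, and the comparison asks what heart endothelium does not share with either.

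At this stage the heart is a tube with a muscle layer outside and a lining, the endocardium, inside, separated by a matrix called cardiac jelly. Endocardium is a specialised endothelium: it keeps general vessel genes and adds transcription factors that it shares with heart muscle, such as GATA, T-box and HAND factors. In the atrioventricular canal and outflow tract, signals from the muscle, among them BMP and TGF-beta ligands, make some of these cells enter the jelly as mesenchyme and build the valve cushions. Because bulk RNA was measured, more cells of a type and more RNA per cell cannot be told apart.

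Levels are given as the natural log of the deposited signal, which runs over the range usual for log2 values of the RMA method. If the natural log restores such log2 values, a difference of 1.26, the median among genes higher in the heart tube, means 2.39-fold. If the deposited signals are linear, it means 3.52-fold. The linear reading is the less likely, because the deposited signals reached 2172540, above a scanner limit of 65535. The tests do not depend on which reading holds. A gene was represented by 1 probe set, and 27 probe sets for bacterial RNAs, at 1.33 to 4.03 on the 6 arrays, show where weak signals lie. Replicate arrays correlated at 0.981 to 0.986 over all probe sets without controls. The heart tube arrays correlated at 0.961 to 0.969 with those of caudal-half tissue and at 0.946 to 0.952 with those of the yolk sac. The difference between 3' and 5' probe sets of Gapdh, a measure of RNA integrity, was 1.88 to 1.98 in the heart tube, 1.58 to 1.67 in caudal-half tissue and 1.81 to 2.04 in the yolk sac.

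The gene of the marker sorted for and the defining endothelial genes were far above the bacterial controls in the heart tube, and that of CD45 was not. Pecam1, which encodes CD31, was at 9.49 and 9.61 on the heart tube arrays, and its difference of -0.40 ± 0.16 (SE) from the mean of both other tissues was not called (limma adjusted p = 0.204). Cdh5, the cadherin of endothelial junctions, was at 9.97 and 10.03, and Kdr, the main VEGF receptor, at 9.70 and 10.17. Ptprc, which encodes CD45, was at 2.33 and 2.60, at the level of the bacterial controls. Itga2b, which encodes CD41, was at 6.81 and 6.93 in the heart tube, so its RNA was measured although cells with the protein were sorted out.

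Over all 18193 genes, 697 were higher in the heart tube than the mean of both other tissues (3.83%) and 827 were lower (4.55%), at a limma adjusted p under 0.05. Of the genes called, 678 of the higher and 785 of the lower lay outside both other tissue means, and the other 19 and 42 lay between them. A gene can be called in this way because 1 of the 2 other tissues stands far apart, so the difference from the nearer tissue was tested as well, by the larger p of the 2 pairwise comparisons. By that test 209 genes were higher than in either other tissue (1.15%) and 156 were lower (0.857%), 2.01% together, all of them also called against the mean. The median difference from the nearer tissue was 2.02 upward and -1.67 downward, and it exceeded 4 in size for 12 higher and 2 lower genes.

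The counts depended on single arrays because each tissue has only 2. Without the first or the second heart tube array, 262 or 291 genes were higher and 291 or 365 lower against the mean. Against the nearer tissue, leaving out the first and the second array gave 82 and 88 higher and 62 and 67 lower genes for the heart tube, 95 and 107 higher and 58 and 60 lower for caudal-half tissue, and 129 and 124 higher with 81 lower each for the yolk sac. Whichever array was left out, 206 higher and 237 lower genes kept their call against the mean, and 66 higher and 39 lower kept it against the nearer tissue. In the following, a call is said to be kept where it passed without each of the 6 arrays in turn. A gene given as higher or lower is so against the mean, which does not imply a kept call against the nearer tissue. Counts of called list members stand beside 3.83% higher and 4.55% lower over all genes.

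**Figure D1:**
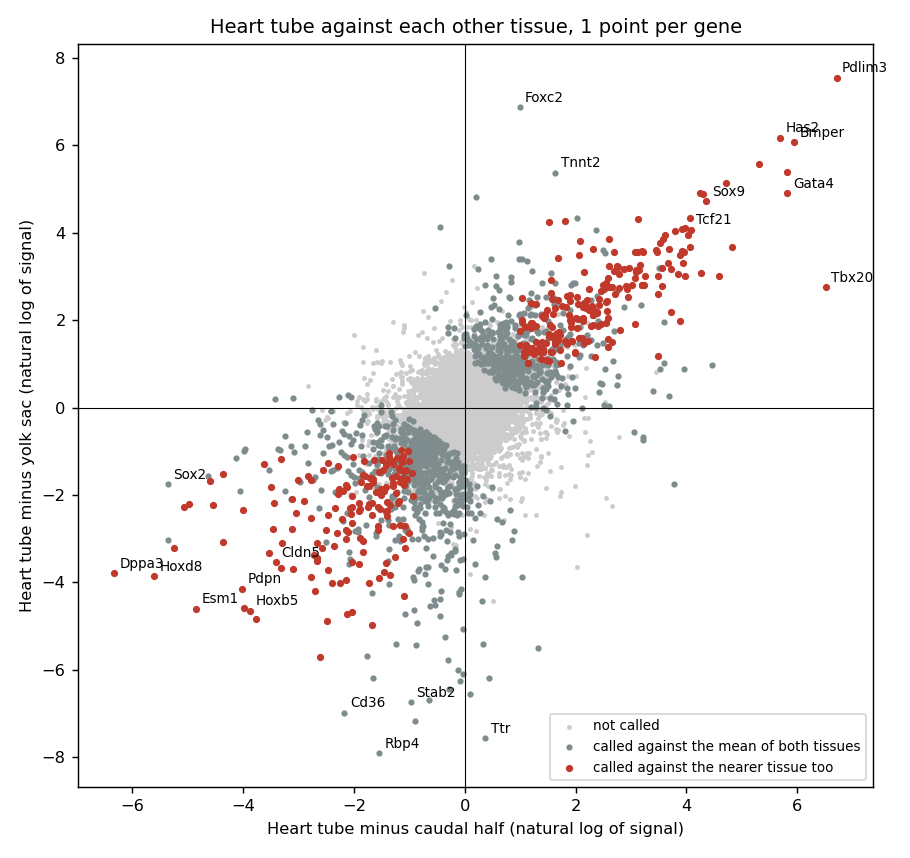
Difference of the heart tube from caudal-half tissue (horizontal axis) and from the yolk sac (vertical axis) for each of 18193 genes, both in natural log of the deposited signal. Red points are the 365 genes called against the nearer tissue, grey-green points those called against the mean of both tissues only; Pdlim3 lies furthest toward the upper right, whereas Ttr and Foxc2 differ mainly from the yolk sac.

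The genes that stood furthest above both tissues encode a muscle-type cytoskeletal protein, makers and components of matrix, and transcription factors of the heart. Pdlim3, a PDZ-LIM protein at the Z-disc of muscle, was at 11.53 and 11.61 on the heart tube arrays, 4.88 and 4.85 on the caudal and 4.14 and 3.89 on the yolk sac arrays. Its difference from the mean of both was 7.13 ± 0.15 (limma adjusted p = 2.81e-05). This is 140-fold if the values are log2 and 1248-fold under the less likely linear reading. Bmper, a secreted regulator of BMP signalling, was at 8.06 and 8.16 in the heart tube and at the level of the bacterial controls on the other arrays, at 2.2 and 2.13 in caudal-half tissue and 1.82 and 2.27 in the yolk sac. Has2, which makes the hyaluronan that fills cardiac jelly, was at 10.03 and 9.85, against 4.12 and 4.38 on the caudal and 3.81 and 3.70 on the yolk sac arrays. In none of these genes did the arrays of the heart tube come near those of another tissue.

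The other genes among the 15 furthest above both tissues had several kinds of function. Ccdc141, a coiled-coil protein gene, differed from the nearer tissue by 5.40, and the ephrin receptor gene Epha3 by 4.71. Tubb3, a beta-tubulin best known from neurons, differed by 4.29 and was at 7.99 and 8.71 in the heart tube, with no array of another tissue above 4.10. Fbln2, a fibulin of the matrix, differed by 4.07, Pappa, a protease of IGF-binding proteins, by 3.94, and Corin, the protease that activates natriuretic peptide, by 3.92. All 15 genes kept both calls, and their 19 further probe sets, present for 10 of them, differed in the same direction. The sizes varied: the further probe set of Fbln2 differed by 0.16 and that of Tcf21 by 0.27, those of Hand2 by 1.21 and 1.22, and those of Sox9 by 1.01 and 4.68. In 6 of the 15 both other tissue means were at the level of the bacterial controls, so that the size of those differences rests on a signal near background.

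**Figure D2:**
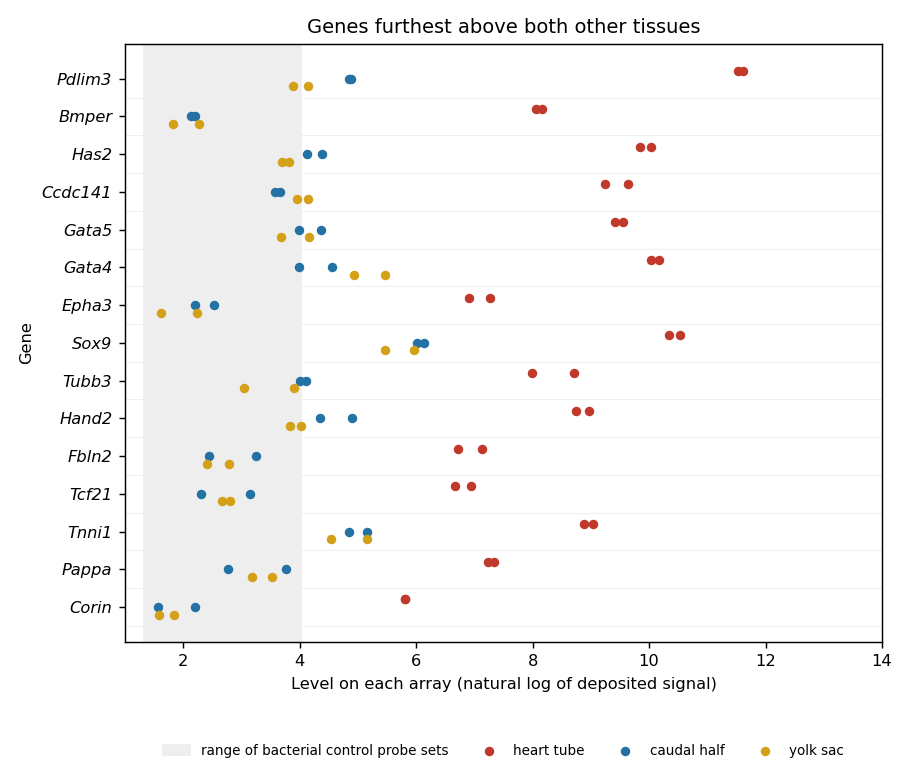
Level on each of the 6 arrays of the 15 genes with the largest difference above the nearer tissue, in natural log of the deposited signal; each point is 1 array and the grey band is the range of the bacterial control probe sets. The 2 heart tube points of every gene lie to the right of the 4 others, as for Pdlim3 at 11.53 and 11.61.

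A large share of the listed cardiac transcription factor genes was higher in the heart tube. Of 20 in the list, 10 were higher and 1 lower, of which 9 and 0 were kept, with a median difference of 1.36 beside -0.07 over all genes. The difference from the nearer tissue was called for 9 higher genes, 5 of them kept. Gata5 was at 9.41 and 9.55 in the heart tube and between 3.68 and 4.37 on the other arrays, a difference of 5.44 ± 0.20. Gata4 was at 10.17 and 10.03, against 4.56 and 3.99 on the caudal and 5.46 and 4.94 on the yolk sac arrays. The third factor of this subfamily, Gata6, chosen after its values were seen, was at 9.14 and 9.13 in the heart tube and not low elsewhere, at 6.69 and 6.25 in caudal-half tissue and 7.40 and 7.87 in the yolk sac. The 3 GATA genes therefore differed in degree: all were higher in the heart tube, and in caudal-half tissue Gata4 and Gata5 were below 5 on each array while Gata6 was above 6. Against the nearer tissue Gata6 differed by 1.5 (limma adjusted p = 0.0339), a call lost whichever single array was left out (up to 0.198).

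Hand2, a basic helix-loop-helix factor of heart and limb, was at 8.97 and 8.74 in the heart tube and at 3.84 to 4.89 on the other arrays. Tbx20, a T-box factor of endocardium and heart muscle, was at 12.18 and 11.95 on the heart tube arrays, 5.35 and 5.76 on the caudal and 9.31 and 9.31 on the yolk sac arrays. The yolk sac was thus the nearer tissue for Tbx20, with a difference of 2.75 (limma adjusted p = 0.00231), and its level there was far above that in caudal-half tissue. Irx5, an Iroquois homeobox factor, differed from the mean of both by 3.79 ± 0.19, Tbx5, a T-box factor of atria and forelimb, by 3.39 ± 0.40 and Hey2, a Notch target of ventricle and arteries, by 2.31 ± 0.23. These 3 genes were chosen after their values were seen. Against the nearer tissue the call of Tbx5 was lost without any 1 array of the heart tube or yolk sac (limma adjusted p up to 0.152) and that of Hey2 without 3 of the arrays (up to 0.0785).

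Nfatc1, the factor that marks endocardium and is needed for valve growth, was at 9.79 and 9.73 on the heart tube arrays, 6.62 and 6.61 on the caudal and 7.18 and 6.04 on the yolk sac arrays, a difference of 3.15 ± 0.31. It kept its call against the mean and lost that against the nearer tissue without any 1 array of the heart tube or caudal-half tissue (limma adjusted p up to 0.0799). Other factors of heart development did not stand out. Nkx2-5, an early factor of heart muscle, was at 3.33 and 3.01, at the level of the bacterial controls in all 3 tissues. Isl1, Mef2c, Hand1, Hey1, Tbx2 and Meis1 were not called against the mean, and Irx3 was lower (-1.25 ± 0.24) but lost its call when single arrays were left out.

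GATA and T-box factor genes were among the leading genes, so the letters before the start sites of genes called against the nearer tissue were searched for a GATA motif (AGATAA, or TTATCT on the other strand) and a T-box motif (GGTGTGA or TCACACC). RefSeq windows on GRCm38.p6, 250 bases before each start, were found for 11 of the 15 genes furthest above both tissues. The GATA letters were present for 4 of these genes and the T-box letters for 0. The GATA matches are shown with the bases on either side, 5′ to 3′ along the gene's strand, with the motif in capitals.
Ccdc141: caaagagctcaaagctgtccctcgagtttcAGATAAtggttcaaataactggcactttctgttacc
Epha3: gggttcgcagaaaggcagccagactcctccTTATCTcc
Hand2: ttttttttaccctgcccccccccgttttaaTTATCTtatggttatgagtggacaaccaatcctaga
Tcf21: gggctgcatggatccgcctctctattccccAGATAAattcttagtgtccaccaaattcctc
The stretches lie at chr2:77170780-77170845 (minus strand) for Ccdc141, chr16:63864176-63864213 (minus) for Epha3, chr8:57320781-57320846 (plus) for Hand2 and chr10:22820144-22820204 (minus) for Tcf21. The GATA letters were present in 20 of 223 windows of genes higher than both tissues (8.97%), 4 of 137 of genes lower than both (2.92%) and 7.40% of the 18109 windows of measured genes. The T-box letters were present in 4 (1.79%), 9 (6.57%) and 3.08% of these windows. A match describes letters only and was not tested for binding.

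Factors of cushion formation, which drive the change from endothelium to mesenchyme, were also higher. Of 18 genes, 8 were higher and 0 lower, 6 of them kept, with a median difference of 0.87 beside -0.07 over all genes. In the test against the nearer tissue 5 passed, 3 of them kept. Sox9, needed for the growth of cushion mesenchyme, was at 10.53 and 10.35 on the heart tube arrays, 6.02 and 6.14 on the caudal and 5.96 and 5.47 on the yolk sac arrays. Twist1 differed from the mean by 3.03 ± 0.18, Msx1 by 3.04 ± 0.20 and Prrx2 by 2.93 ± 0.21, of which Twist1 and Prrx2 were chosen after their values were seen. Sox9, Twist1 and Prrx2 also kept their call against the nearer tissue, whereas Msx1 lost it without any 1 array of the heart tube or caudal-half tissue (limma adjusted p up to 0.126). Foxc2 was at 9.93 and 9.95 in the heart tube, but also at 9.16 and 8.75 in caudal-half tissue, against 2.71 and 3.42 in the yolk sac, so that its call against the mean rested on the yolk sac. Zeb1, Id1, Id3 and Snai2 were not called, and all had levels above the bacterial controls in the 3 tissues.

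Genes of BMP and TGF-beta signalling moved both ways among ligands and among receptors. Among 23 ligands and secreted regulators 5 were higher and 3 lower, 4 and 0 kept, with a median difference of -0.11. The higher ones included, besides Bmper, Ltbp1, a binding protein of latent TGF-beta (2.27 ± 0.15), Inhba, an activin subunit (2.23 ± 0.27), and Tgfb2, a ligand of cushion formation (2.08 ± 0.23). Tgfb2 was at 10.07 and 10.24 in the heart tube and at 7.34 to 8.60 on the other arrays. The calls of Inhba and Tgfb2 against the nearer tissue (2.19 and 1.69, limma adjusted p = 0.0246 and 0.0315) were not kept. The ligand gene Bmp4, likewise picked with its values known, was lower (-1.28 ± 0.18), a call lost without the first heart tube array (limma adjusted p = 0.0777). A second probe set of Inhba differed by -0.49 and did not share its direction.

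Among 18 receptors and mediators of these pathways 5 were higher and 2 lower, 3 and 1 kept. Of the type I receptors, Bmpr1a and Acvr1 were higher, Acvrl1 was lower, and Tgfbr1, Acvr1b and Bmpr1b were not called. The call of Acvr1 was not kept, and it was not called against the nearer tissue (0.65, limma adjusted p = 0.316). Bmpr1a was at 10.45 and 10.48 on the heart tube arrays, 8.91 and 8.94 on the caudal and 7.91 and 7.79 on the yolk sac arrays. Acvrl1, a BMP receptor of arterial endothelium, was at 5.08 and 5.25, against 7.70 and 7.56 on the caudal and 8.88 and 8.87 on the yolk sac arrays. The inhibitory mediators Smad6 and Smad7 were higher by 2.68 ± 0.27 and 1.62 ± 0.17. Against the nearer tissue Acvrl1 kept its call (-2.47, limma adjusted p = 0.00169), whereas those of Bmpr1a and Smad6 were lost without any 1 array of the heart tube or caudal-half tissue (up to 0.0614 and 0.0921), and Smad7 was not called (1.06, limma adjusted p = 0.0582).

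WNT pathway genes included 10 higher and 0 lower members of 33, beside 3.83% higher and 4.55% lower over all genes. Of these calls 2 were kept, those of Dkk1 and Fzd2. The list's median difference was 0.30. Dkk1, a secreted WNT antagonist, was at 6.17 and 6.00 in the heart tube and at 2.98 to 3.36 on the other arrays, at the level of the bacterial controls. Fzd2, a WNT receptor, was at 9.06 and 9.02 in the heart tube and at 6.64 to 7.28 elsewhere. Its 2 further probe sets differed by 0.38 and 0.70. Wnt5a, a ligand, was higher by 2.05 ± 0.30, and its 3 further probe sets differed by -0.25 to 1.73, 2 of them in the same direction. Dkk3, a Dickkopf-family protein, was higher by 2.27 ± 0.29, with 1 further probe set at 0.59. Both calls were lost when a heart tube array was left out, that of Wnt5a without either (limma adjusted p up to 0.0818) and that of Dkk3 without the second (0.0503).

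Receptor tyrosine kinase genes included 2 of the larger differences. Erbb3, a neuregulin receptor that is required in cushion mesenchyme, was at 8.23 and 8.58 on the heart tube arrays, 4.65 and 5.03 on the caudal and 4.49 and 4.63 on the yolk sac arrays. Pdgfra, the PDGF receptor of mesenchyme, was at 8.35 and 8.38, against 5.48 and 5.02 on the caudal and 4.27 and 3.84 on the yolk sac arrays. The ligand genes Pdgfa and Pdgfb were lower, by -1.87 ± 0.20 and -2.57 ± 0.38, and neither was called against the nearer tissue (limma adjusted p = 0.201 and 0.124). Over the list of 27 FGF, neuregulin, EGF and PDGF genes, 5 were higher and 5 lower, 2 each kept, with a median difference of -0.19. Nrg1, the neuregulin ligand, was at 6.88 and 6.64 in the heart tube, but at 6.34 and 5.42 in the yolk sac, and was not called against that nearer tissue (0.88, limma adjusted p = 0.642). Spry1 and Spry4, feedback inhibitors of FGF signalling chosen after their values were seen, were lower by -1.85 ± 0.30 and -1.36 ± 0.17. The call of Spry1 was lost without either heart tube array (limma adjusted p up to 0.120) and that of Spry4 without the second (0.057).

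Guidance genes, whose products attract or repel migrating cells, moved both ways: 6 of 31 were higher and 7 lower, 4 and 2 kept, with a median difference of -0.25. Sema3a, a secreted semaphorin, was at 8.59 and 8.65 on the heart tube arrays, 5.91 and 6.10 on the caudal and 5.35 and 5.41 on the yolk sac arrays, and it kept both calls. Epha7, an ephrin receptor like Epha3, was higher by 2.66 ± 0.28, and its call against the nearer tissue was lost without any 1 array of the heart tube or yolk sac (limma adjusted p up to 0.109).

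Genes of cardiac jelly and cushion matrix included 11 higher and 4 lower members of 25, of which 9 and 1 were kept, with a median difference of 0.37. There were 6 higher and 0 lower against the nearer tissue, 3 of them kept. Besides Has2 and Fbln2, Vcan, the hyaluronan-binding proteoglycan versican, was at 11.85 and 11.92 on the heart tube arrays, 6.87 and 7.25 on the caudal and 8.79 and 7.62 on the yolk sac arrays. It lost its call against the nearer tissue without either heart tube array (limma adjusted p up to 0.0556). Its 7 further probe sets differed in the same direction, by 0.07 to 4.55. Thbs1, a thrombospondin, chosen after its values were seen, was higher by 3.51 ± 0.18. Tnc, tenascin-C, and Hapln1, which links hyaluronan to proteoglycans, were chosen likewise and were higher by 2.72 ± 0.18 and 1.52 ± 0.14. Against the nearer tissue the call of Hapln1 (1.04, limma adjusted p = 0.0306) was not kept. For Tnc the yolk sac was at 8.05 and 8.58, near the 9.31 and 9.27 of the heart tube, and it was not called against that tissue (0.97, limma adjusted p = 0.100). Lum, the proteoglycan lumican, was lower, at 2.92 and 3.07 in the heart tube against 5.44 and 4.07 on the caudal and 8.97 and 8.42 on the yolk sac arrays, and was not called against the nearer tissue (-1.76, limma adjusted p = 0.159).

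Collagen and basement membrane genes did not move one way: 4 of 29 were higher and 4 lower, 2 and 4 kept. Col3a1, the fibrillar collagen of loose tissue, was at 11.26 and 11.45 on the heart tube arrays, 7.5 and 8.15 on the caudal and 10.36 and 10.56 on the yolk sac arrays, and was not called against the yolk sac, the nearer tissue (0.89, limma adjusted p = 0.218). Col1a1 was lower, at 7.53 and 7.74 on the heart tube arrays, 8.42 and 8.12 on the caudal and 12.21 and 12.16 on the yolk sac arrays, and was not called against caudal-half tissue, the nearer tissue (-0.63, limma adjusted p = 0.241). Col15a1, a collagen of vessel basement membranes, was at 5.57 and 5.68 on the heart tube arrays, 9.06 and 9.11 on the caudal and 8.52 and 8.28 on the yolk sac arrays, and it kept both calls. Of 22 matrix protease and inhibitor genes, 4 were higher and 6 lower, 1 and 3 kept. Plau, the urokinase activator of plasminogen, was at 6.45 and 5.65 on the heart tube arrays, 9.48 and 9.72 on the caudal and 9.30 and 9.47 on the yolk sac arrays. Adamts4, which cleaves versican, was lower by -2.44 ± 0.22 and Adamts9, which does so too, by -2.01 ± 0.23, whereas Mmp23 was higher by 2.26 ± 0.16. A second probe set of Mmp23 differed by -0.19. Against the nearer tissue the calls of Adamts4 and Adamts9 were not kept.

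Contractile genes of heart muscle were measured in this sorted fraction, and most of those that differed were higher. Of 27 sarcomere and calcium handling genes, 12 were higher and 1 lower, 6 and 1 kept, with a median difference of 0.62. Of these, 5 were also higher than the nearer tissue, 3 of them kept. Tnni1, the slow troponin I of embryonic heart, was at 8.89 and 9.04 on the heart tube arrays, 5.15 and 4.84 on the caudal and 4.53 and 5.15 on the yolk sac arrays. Myl7, the atrial myosin light chain, was at 8.01 and 8.05, against 4.72 and 3.96 on the caudal and 4.63 and 4.14 on the yolk sac arrays. Tnnt2, cardiac troponin T, was at 10.05 and 10.02 in the heart tube, but also at 8.20 and 8.61 in caudal-half tissue, and was not called against that nearer tissue (1.63, limma adjusted p = 0.0971). Myh6, the alpha myosin heavy chain, was higher by 3.35 ± 0.54, a call lost without either heart tube array (limma adjusted p up to 0.107). The list's mean level on an array was 6.24 to 6.37 in the heart tube, 5.09 to 5.16 in caudal-half tissue and 5.12 to 5.15 in the yolk sac. It moved together with the cardiac transcription factors, some of which heart muscle also expresses, and the part of muscle cells in these differences was not tested.

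Among 26 smooth muscle and cytoskeletal genes 6 were higher and 1 lower, 2 and 0 kept. The kept calls were Pdlim3 and its relative Pdlim1, at 10.00 and 10.15 in the heart tube and at 7.39 to 8.27 on the other arrays. Of the 2 other probe sets of Pdlim1, 1 shared its direction and the other differed by -0.23. The other higher genes were Cnn1, Des, Synpo2 and Synpo and the lower one was Smtn, none of them kept. Acta2, Tagln, Myh11 and Myl9, contractile genes of smooth muscle, were not called.

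**Figure D3:**
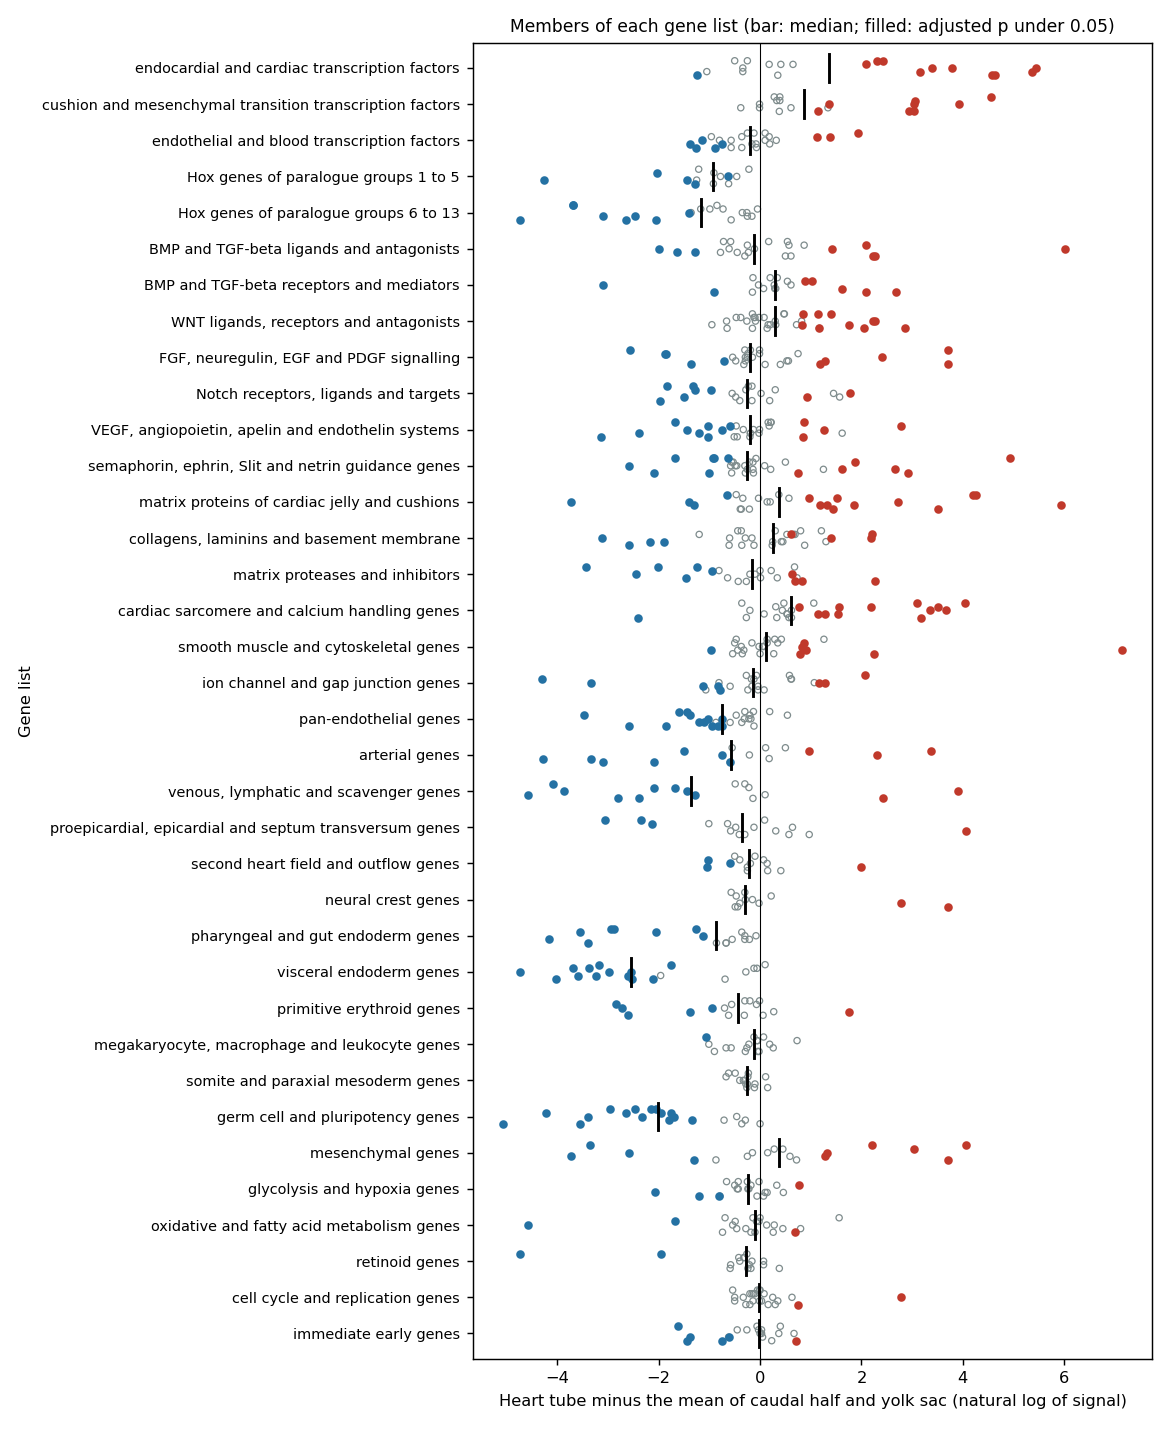
Difference of the heart tube from the mean of caudal-half tissue and yolk sac for the measured members of 36 gene lists, in natural log of the deposited signal; filled points passed a limma adjusted p under 0.05, open points did not, and the bar is the list's median. Cardiac transcription factors (median 1.36) lie furthest to the right, visceral endoderm genes (median -2.55) and germ cell genes (median -2.0) furthest to the left.

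General endothelial genes stayed well above background in the heart tube, and those that differed were lower. Of 26 pan-endothelial genes 0 were higher and 13 lower, with a median difference of -0.75 beside -0.07 over all genes. Of these calls 3 were kept, those of Cldn5, Robo4 and Adgrf5. Called lower than the nearer tissue were 4, of which 1 was kept. The list's mean level on an array was 8.95 to 9.03 in the heart tube, 9.63 to 9.67 in caudal-half tissue and 9.96 to 10.09 in the yolk sac. Cldn5, the claudin of endothelial tight junctions, was at 6.40 and 7.14 on the heart tube arrays, 10.22 and 10.11 on the caudal and 10.29 and 10.32 on the yolk sac arrays. Robo4, a guidance receptor that stabilises vessels, was lower by -2.59 ± 0.23, and its call against the nearer tissue was lost without either caudal array or the second heart tube array (limma adjusted p up to 0.0888). Cdh5 and Kdr were lower by -0.75 ± 0.13 and -1.21 ± 0.22, calls lost without 5 and 4 of the single arrays (up to 0.154 and 0.162), including either heart tube array. Tek, Eng, Cd93, Ramp2, Tie1 and Emcn were not called.

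**Figure D4:**
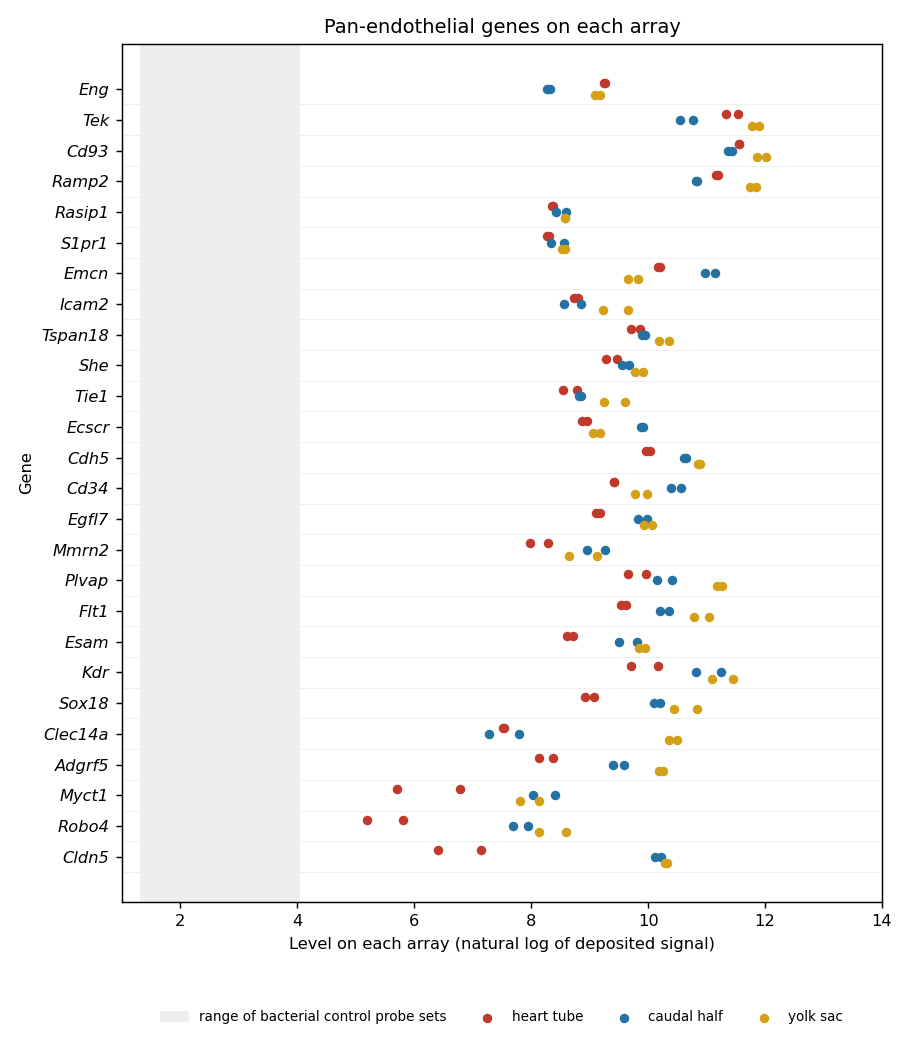
Level on each of the 6 arrays of the 26 pan-endothelial genes, ordered by their difference in the heart tube, in natural log of the deposited signal; each point is 1 array and the grey band is the range of the bacterial control probe sets. No point lies in that band, and Cldn5 and Robo4 at the bottom have the largest difference of the heart tube below the mean of the other tissues.

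Among genes of arterial identity the heart tube gave a mixed picture. Of 16 genes 3 were higher and 7 lower, 2 and 4 kept. Gja5, a connexin of arteries and atria, was at 6.41 and 6.88 on the heart tube arrays, 9.29 and 9.53 on the caudal and 10.53 and 10.54 on the yolk sac arrays. Depp1, a target of FOXO factors, was at 3.64 and 3.27, against 7.27 and 7.63 on the caudal and 8.12 and 7.95 on the yolk sac arrays, and Sema3g, an arterial semaphorin picked with its values known, was lower by -2.10 ± 0.14. Bmx, a kinase of arterial endothelium and endocardium, went the other way, at 7.09 and 7.60 in the heart tube and at 3.46 to 4.2 on the other arrays. Notch pathway genes included 2 higher and 6 lower members of 20, 1 each kept. Mfng, which glycosylates Notch, was lower by -1.98 ± 0.16 and Notch3 higher by 1.77 ± 0.15, whereas Dll4, the ligand of arteries and sprouts, was lower by -1.50 ± 0.22, a call lost without the first heart tube array (limma adjusted p = 0.0947). Against the nearer tissue the calls of Mfng, Notch3 and Dll4 were not kept. Notch1, the main receptor of endocardium, was not called against the mean.

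Venous, lymphatic and scavenger genes included 9 lower and 2 higher members of 16, 8 and 1 kept, with a median difference of -1.37. Only 4 of the lower and 1 of the higher genes were also called against the nearer tissue, 2 and 1 kept. Median levels of the list were 8.16 (heart tube), 10.19 (yolk sac) and 7.92 (caudal-half tissue), so by this measure the heart tube was below the yolk sac only. The members Nr2f2 (0.10, limma adjusted p = 0.727) and Ephb4 (-0.49, limma adjusted p = 0.165) were not called. Pdpn, a mucin-type protein of lymphatics and mesothelium, was at 3.13 and 3.36 on the heart tube arrays, 7.47 and 7.06 on the caudal and 7.06 and 7.74 on the yolk sac arrays. Aplnr, the apelin receptor of veins and early vessels, was at 9.34 and 9.45, against 11.71 and 11.49 on the caudal and 11.91 and 12.01 on the yolk sac arrays. The gene of its ligand, Apln, which marks growing vessel tips, was lower as well, at 2.63 and 3.23 on the heart tube arrays, 7.30 and 7.76 on the caudal and 4.52 and 4.71 on the yolk sac arrays. Its call against the nearer tissue was lost whichever array was left out (limma adjusted p up to 0.174). The 2 higher members were Prox1, the factor of lymphatic identity (2.42 ± 0.45), whose call was lost without 3 of the single arrays (limma adjusted p up to 0.155), and Ackr3. Ackr3, a scavenging receptor for the chemokine CXCL12, was at 9.76 and 9.93 in the heart tube and at 5.58 to 6.07 on the other arrays. Of the 28 genes of the VEGF, angiopoietin, apelin and endothelin systems 4 were higher and 9 lower, 2 and 4 kept. Nrp2, a co-receptor of VEGF and semaphorins, was lower by -1.68 ± 0.15. Ednrb, an endothelin receptor, was higher by 2.78 ± 0.31 and was not called against the nearer tissue (1.96, limma adjusted p = 0.0564). The call of Npr3, a natriuretic peptide receptor of endocardium (0.84 ± 0.15), was lost without 5 of the single arrays (limma adjusted p up to 0.159).

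The genes furthest below both tissues were led by Esm1. This gene, which encodes a proteoglycan of endothelial tip cells, was at 2.48 and 2.68 on the heart tube arrays, 7.31 and 7.55 on the caudal and 7.14 and 7.25 on the yolk sac arrays. Its difference from the mean was -4.73 ± 0.15 (limma adjusted p = 9.02e-05). This is 26.6-fold if the values are log2 and 114-fold under the less likely linear reading. The potassium channel regulator gene Abcc9 was at 2.42 and 3.71 on the heart tube arrays, 6.92 and 6.72 on the caudal and 8.03 and 7.81 on the yolk sac arrays, and lost its call against the nearer tissue without either caudal array (limma adjusted p up to 0.0710). Clec1b, a lectin receptor best known from platelets, was at 6.48 and 6.32 in the heart tube and at 9.31 to 9.75 on the other arrays. Chchd10, a mitochondrial protein gene, differed from the nearer tissue by -3.32 and Csn3, a casein gene, by -3.09, but a second probe set of Csn3 differed by 0.25. In 8 of the 15 genes furthest below both tissues the heart tube mean was at the level of the bacterial controls. All 15 kept their call against the mean, and 14 that against the nearer tissue.

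**Figure D5:**
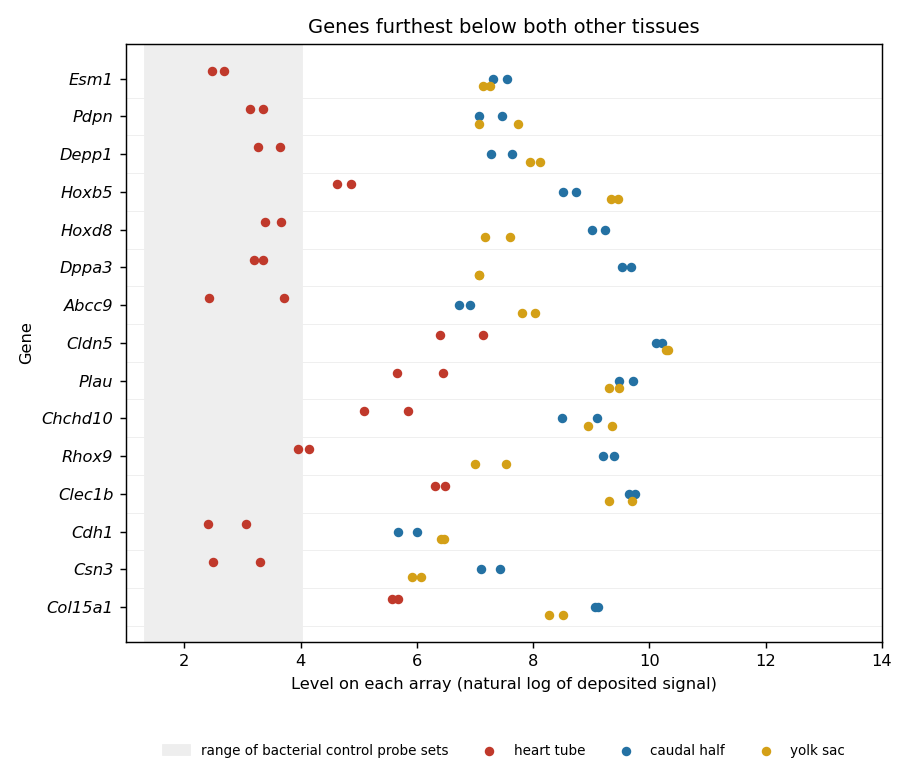
Level on each of the 6 arrays of the 15 genes with the largest difference below the nearer tissue, in natural log of the deposited signal; each point is 1 array and the grey band is the range of the bacterial control probe sets. The 2 heart tube points of every gene lie to the left of the 4 others, and in genes such as Esm1 (2.48 and 2.68) they lie in the band.

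Hox genes, which give cells their position along the body axis, were lower or not called. Of 13 members of paralogue groups 1 to 5, 0 were higher and 5 lower, 2 of them kept (Hoxb4 and Hoxb5), with a median difference of -0.92. Of 19 members of groups 6 to 13, 0 were higher and 8 lower, 6 of them kept, with a median of -1.17. Called lower than the nearer tissue were 2 in groups 1 to 5, 1 kept, and 4 in groups 6 to 13, 3 kept. Hoxb5 was at 4.63 and 4.86 on the heart tube arrays, 8.51 and 8.74 on the caudal and 9.46 and 9.34 on the yolk sac arrays. Hoxd8 was at 3.67 and 3.38, against 9.23 and 9.02 on the caudal and 7.17 and 7.61 on the yolk sac arrays, and Hoxc8 at 2.28 and 2.34, against 4.76 and 4.84 and 7.17 and 7.21. The order of the other tissues thus varied: Hoxd8 was highest in caudal-half tissue, Hoxc8 in the yolk sac. In 13 of the 19 genes of groups 6 to 13 the heart tube mean was at the level of the bacterial controls. Hoxc10 was at 2.95 and 2.80 on the heart tube arrays, 8.03 and 6.98 on the caudal and 4.39 and 4.48 on the yolk sac arrays, and was not called against the nearer tissue (-1.56, limma adjusted p = 0.0940).

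Genes of germ cells and pluripotency included 15 lower and 0 higher members of 20, 12 of them kept, with a median difference of -2.0. Of these, 7 were also lower than the nearer tissue, 3 of them kept. Dppa3, expressed in primordial germ cells, was at 3.35 and 3.20 on the heart tube arrays, 9.68 and 9.52 on the caudal and 7.06 and 7.07 on the yolk sac arrays. Rhox9, a homeobox gene of the X-linked Rhox cluster, was at 3.95 and 4.15, against 9.20 and 9.39 on the caudal and 7.0 and 7.53 on the yolk sac arrays. Dppa5a was lower by -3.39 ± 0.19, and Nanog, chosen after its values were seen, by -2.95 ± 0.17. The call of Nanog against the nearer tissue was lost whichever array was left out (limma adjusted p up to 0.0997). The germ cell genes Ddx4 and Dazl were at the level of the bacterial controls in all 3 tissues. The list's mean level was 4.04 to 4.29 on the heart tube arrays, 6.93 to 6.99 on those of caudal-half tissue and 5.42 to 5.56 on those of the yolk sac, so the heart tube was lowest against either, and the part of germ cells in the difference was not tested.

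Epithelial and gut endoderm genes included 8 lower and 0 higher members of 17, 6 of them kept. Cdh1, the cadherin of epithelia, was at 2.41 and 3.06 on the heart tube arrays, 6.00 and 5.67 on the caudal and 6.41 and 6.47 on the yolk sac arrays. Epcam, an epithelial adhesion molecule, was at 4.30 and 4.45, against 7.39 and 7.60 on the caudal and 6.88 and 7.40 on the yolk sac arrays. Cldn6, a claudin of embryonic epithelia, was at 3.65 and 3.98 on the heart tube arrays, 6.68 and 6.17 on the caudal and 9.62 and 9.45 on the yolk sac arrays. The endoderm factors Foxa1 and Foxa2 were at the level of the bacterial controls in all 3 tissues and were not called.

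For other genes the difference from the mean was set mainly by the yolk sac. Visceral endoderm genes included 13 lower and 0 higher members of 19, all 13 kept, but 0 of them were called against the nearer tissue. Ttr, transthyretin, was at 4.81 and 4.90 on the heart tube arrays, 4.46 and 4.50 on the caudal and 12.31 and 12.53 on the yolk sac arrays. The lipoprotein gene Apob, the trypsin inhibitor gene Spink1, the claudin gene Cldn2 and the mannose receptor gene Mrc1 had the same form, with the heart tube mean between those of the other tissues. The call of Mrc1 was lost without 5 of the single arrays (limma adjusted p up to 0.107). Stab2, a hyaluronan receptor of sinusoidal endothelium, was at 5.20 and 4.80 on the heart tube arrays, 5.70 and 6.23 on the caudal and 11.76 and 11.74 on the yolk sac arrays. Cd36, a fatty acid carrier, was at 2.51 and 4.79 on the heart tube arrays. It was at 5.95 and 5.69 on the caudal and 10.58 and 10.69 on the yolk sac arrays. Its level was below that of caudal-half tissue too, without a call against that nearer tissue (-2.17, limma adjusted p = 0.272). Among the genes named here it had the widest spread between the heart tube replicates.

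Genes of blood and its precursors were called in both directions. Runx1, the factor required for blood to arise from endothelium, was at 6.26 and 6.28 on the heart tube arrays, 6.33 and 6.63 on the caudal and 6.44 and 6.67 on the yolk sac arrays (-0.25 ± 0.16, limma adjusted p = 0.420). Its 5 further probe sets were all lower in the heart tube, by -0.33 to -2.59, so its call depended on the probe set. With the mean of its probe sets it was lower by -1.07 (limma adjusted p = 0.00507), and with the probe set of largest variance by -2.59 (limma adjusted p = 0.00154). Gfi1, a repressor downstream of it, was at 4.34 and 3.08 on the heart tube arrays, 5.70 and 5.35 on the caudal and 2.73 and 3.33 on the yolk sac arrays, and was not called. Among 24 endothelial and blood transcription factors 3 were higher and 5 lower, where 8.38% of all genes were called, and 1 and 0 of these calls were kept. The kept call was Mecom, at 10.58 and 10.65 on the heart tube arrays. It was at 9.5 and 9.74 on the caudal and 8.90 and 8.83 on the yolk sac arrays. Its 2 further probe sets differed by -0.05 and 0.86. Against the nearer tissue its call (1.00, limma adjusted p = 0.0425) was not kept. Sox17 and Sox18, SoxF factors of vessels, were lower by -1.27 ± 0.19 and -1.39 ± 0.17, calls lost without either heart tube array (limma adjusted p up to 0.0861) and without the first (0.0547).

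Erythroid genes included 5 lower and 1 higher members of 16, 3 and 0 kept. Called against the nearer tissue were 2 lower and 0 higher, with 0 kept. The embryonic globin gene Hba-x was at 7.47 and 6.96 on the heart tube arrays, 8.77 and 8.76 on the caudal and 11.04 and 11.23 on the yolk sac arrays, and Hbb-bh1 followed the same order. Of 17 megakaryocyte, macrophage and leukocyte genes 1 was lower and 0 higher, where 8.38% of all genes were called. The lower one was Coro1a, an actin-binding protein of leukocytes (-1.07 ± 0.19). Its call was lost without any 1 array of the heart tube or caudal-half tissue.

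Markers of other cells that the heart region could hold were measured beside these results. Of 16 proepicardial, epicardial and septum transversum genes 1 was higher and 3 lower, 1 and 2 kept. The higher one was Tcf21, a factor of cardiac and visceral mesenchyme, at 6.67 and 6.94 in the heart tube and at 2.30 to 3.15 on the other arrays. The defining epicardial genes Wt1 and Tbx18 were at the level of the bacterial controls in the heart tube. Of 14 second heart field and outflow genes 1 was higher and 3 lower, 1 and 0 kept. The higher one was Rgs5, a regulator of G-protein signalling (1.99 ± 0.20). Against the nearer tissue its call (1.39, limma adjusted p = 0.0378) was not kept. Of 12 neural crest genes 2 were higher and 0 lower, both kept, with a median difference of -0.30. They were Erbb3 and Ednrb, of which only Erbb3 was called against the nearer tissue. Foxd3, Tfap2b, Dlx1, Dlx5 and Pax3 were at the level of the bacterial controls in the heart tube, and the rest of the list was above it. The list's mean level on an array was 5.12 to 5.19 in the heart tube, 4.95 in caudal-half tissue and 4.72 to 4.81 in the yolk sac. Mesenchymal genes included 6 higher and 4 lower members of 18, 4 and 3 kept, and their mean level was 6.20 to 6.27 on the heart tube arrays, 5.32 to 5.43 in caudal-half tissue and 6.36 to 6.6 in the yolk sac. Foxf1, a factor of gut and yolk sac mesoderm, was lower by -3.36 ± 0.18. The part of mesenchymal cells in the matrix and cushion results was not tested.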

How the data were processed

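RNA of 6 sorted samples was measured on 1 array each. The authors made the deposited probe-set intensity values with RMA (affy package), per the submitters' processing notes. No version, chip definition or build was at hand for this work. The deposited intensities reached 2172540, above the 65535 of a 16-bit scanner, so their natural log, 0.899 to 14.6, was used as the log scale; log2 would multiply each difference by 1.44. Of 45101 probe sets, 34945 had 1 gene symbol in the platform annotation, 932 several and 9160 none, besides 64 controls. Each of 18193 genes was represented by the probe set, annotated to it alone, with the highest mean over all arrays.

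The linear model of limma 3.58.1 (R 4.3.3; lmFit, eBayes) estimated 1 mean per tissue (3 residual and 3.48 prior degrees of freedom), two-sided, with Benjamini-Hochberg adjustment over all genes at 0.05. Against the nearer tissue, the larger of both pairwise p-values was adjusted, or 1 where signs differed. The p-values set each difference against the spread between replicate samples, shared over the 3 tissues and moderated by that of all genes. Values after ± are standard errors of the fit (median 0.182), and the number of arrays limits precision.

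Named genes are the 15 per direction furthest from the nearer tissue, up to 4 called members per list, a fixed set, 5 genes called but lying between the other tissues, and others chosen after their values were seen: those so marked, Pdgfa, and list members named as not called or as losing a call. The members and lists were chosen with earlier results of these data known. List counts carry no test. Some list members were not analysed here.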

Additional observations from a re-analysis of the deposited data

How the results depend on the processing

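With 1 array left out, 262 to 596 genes were higher and 291 to 661 lower against the mean of both other tissues, and 82 to 129 higher and 58 to 81 lower against the nearer tissue. Requiring a difference above 1 left 121 and 136 genes against the mean and 56 and 31 against the nearer tissue, and by its construction this setting is stricter. An intensity trend with a robust prior gave 236 lower genes against the nearer tissue. Replicate numbers did not pair the arrays (correlations of replicate differences 0.05, 0.02 and -0.01), and with the replicate block 93 genes were lower against the nearer tissue. The other counts under these 2 settings and all counts under the other settings (another rule for probe sets, no dim genes, another scaling, array weights, log2) stayed within 1.5 times the main count. The share of higher genes among the calls was 45.7%, 43.0% after quantile normalization again and 41.6% with arrays centred on the median.

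Of 1775 values of named genes under settings with all arrays, 1680 kept their direction and side of the threshold, 92 lost the call, 2 gained it (both Runx1, under other rules for probe sets) and 1 reversed. The reversal was Pfkp, at 0.46 with its most variable probe set (limma adjusted p = 0.563). Of 1068 values with 1 array left out, 921 were unchanged in this sense, 146 lost the call and 1 reversed: Gfi1, which was not called, ranged from -1.20 to 0.06. The causes were not tested. Signals near the bacterial controls limit the size of differences there. The 101 named genes with further probe sets had 182 of these, of which 174 shared the direction, not always at the same size.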

Other observations

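Metabolic and cell cycle genes outside the groups above gave a few large differences. Cdkn1c, an inhibitor of cyclin-dependent kinases, was at 11.95 and 12.07 in the heart tube, 9.41 and 9.43 in caudal-half tissue and 9.03 and 9.04 in the yolk sac, and it was higher than both whichever array was left out (2.78 ± 0.14 against the mean, limma adjusted p = 0.000258). Of 24 cell cycle and replication genes 2 were higher and 0 lower, where 8.38% of all genes were called. The glucose transporter genes Slc2a3 and Slc2a1 were lower by -2.07 ± 0.18 and -1.20 ± 0.14, among 3 lower and 1 higher of 21 glycolysis and hypoxia genes. Their calls against the nearer tissue were not kept. Dhrs3, a retinaldehyde reductase, was lower by -1.95 ± 0.17, among 2 lower and 0 higher of 16 retinoid genes. It was not called against the nearer tissue (-1.05, limma adjusted p = 0.0564).

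Of 19 immediate early genes 5 were lower and 1 higher. Ier3 was lower by -1.62 ± 0.14 and Fos by -1.44 ± 0.14. Against the nearer tissue Ier3 was not called (limma adjusted p = 0.0626), and the call of Fos was not kept. Immediate early genes can respond to tissue handling, and the part of handling in these values was not tested. The 15 somite and paraxial mesoderm genes gave no call in either direction by limma. Of 21 oxidative and fatty acid metabolism genes 2 were lower and 1 higher, where 8.38% of all genes were called. Of 24 ion channel and gap junction genes 5 were lower and 3 higher. The potassium channel gene Kcnj5 was at 4.71 and 5.11 in the heart tube and at 2.56 to 3.19 on the other arrays. Its 1 further probe set differed by 0.06.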
